A study of Mus musculus with 8 samples.

Results

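The collagen genes are described here as a family, in soleus muscle of Ts65Dn mice and wild-type mice. Members were the probe sets annotated to exactly 1 gene whose symbol has the form Col, number, a, number, with the probe set of highest mean over all arrays taken for each gene. This gave 44 genes from 46 probe sets, out of 19938 genes tested. They fall into 11 fibrillar genes, 8 basement membrane genes (types IV, XV and XVIII), 6 type VI genes and 19 others. Soleus, a calf muscle rich in slow fibres, came from male mice aged 5 months in the basal state. The 4 Ts65Dn mice carry an extra chromosome made of parts of mouse chromosomes 16 and 17 and are a model of Down syndrome. The 4 controls, called WT, were wild-type mice of the colony on a mixed B6 and C3H background, B6EiC3SnF1/J. Each mouse gave 1 array, and the labels describe the arrays of a group as biological replicates. The extra segment of Ts65Dn is present from conception and includes genes that have no counterpart on the human chromosome concerned, which limits it as a model.

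Collagens are trimeric proteins of the extracellular matrix, built from chains in which glycine recurs at a fixed interval so that the triple helix can close. Fibrillar collagens form the load-bearing fibrils of the endomysium, perimysium and tendon, type IV forms the sheet of the basement membrane around each fibre and capillary, and type VI forms beaded filaments that link this sheet to the fibrils. In muscle, collagens are made mainly by fibroblasts and other interstitial cells. Human COL6A1, COL6A2 and COL18A1 lie on the chromosome that is trisomic in Down syndrome, but mouse Col6a1, Col6a2 and Col18a1 lie on chromosome 10 and are in normal dose in Ts65Dn. Col8a1, on chromosome 16, and Col11a2, on chromosome 17, also lie outside the trisomic segments in RefSeq gene order, and no other collagen gene of the array lies on either chromosome.

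Values are log2 RMA values as deposited (RMA corrects background, normalizes between arrays and summarises each probe set), so that a difference of 1 is a doubling. A positive log2 fold change means a higher value in Ts65Dn. Genes were called at a limma p, adjusted by Benjamini-Hochberg over all genes, under 0.05. The array medians were 4.23 to 4.29 in Ts65Dn and 4.37 to 4.56 in WT, and the narrowest spread was that of WT arrays 2 and 3, whose interquartile ranges were 2.74 and 2.62 against 2.90 to 3.12 in the other arrays. Results are therefore also given without these 2 arrays. The 9 soleus fibre markers averaged 11.45 to 11.66 in every array, where the upper quartile of all gene means was 6.09, so the markers of the labelled tissue were at high levels. Because these are bulk samples, fewer cells of a type and less RNA per cell cannot be told apart.

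Of the 44 collagen genes, 7 fell in Ts65Dn soleus, namely Col6a4, Col7a1, Col9a1, Col16a1, Col20a1, Col26a1 and Col28a1, and 0 rose, where 2.94% of all genes were called lower and 2.32% higher. The other 37 did not pass, although 24 of these had an unadjusted p under 0.05, as did all 7 called, beside 34.8% of all genes, 22.6% in the lower direction. A negative log2 fold change was found for 42 of 44, against 60.8% of all genes. The median over the 44 genes was -0.41, beside -0.10 over all genes tested. The exceptions in sign were Col8a1 at 0.50 and Col12a1 at 0.01, neither of which passed. All 4 Ts65Dn arrays lay below all 4 WT arrays for 23 collagen genes, against 15.9% of all genes, and above them for 0, against 6.81% of all genes. None of the 7 calls was made without WT arrays 2 and 3 (adjusted p from 0.194 to 0.231, with 12 of 44 at an unadjusted p under 0.05, beside 16.8% of all genes), where 40 of 44 log2 fold changes were negative with a median of -0.23 beside 58.8% and -0.05 for all genes. That fit kept only arrays 1 and 4 of WT, and 1 of all 19938 genes was called in it. The number of collagens called was also 0 without any 1 of the Ts65Dn arrays, without WT array 2 or without WT array 3, and 17 without WT array 1 or WT array 4. Over all genes, 0 or 1 were called in each of these fits that called 0 collagens. The number over all genes was 2865 without WT array 1 and 2422 without WT array 4. Of the 37 collagens not called, 31 had a log2 fold change smaller by over 1.5 times or of the other sign without WT arrays 2 and 3.

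**Figure D1:**
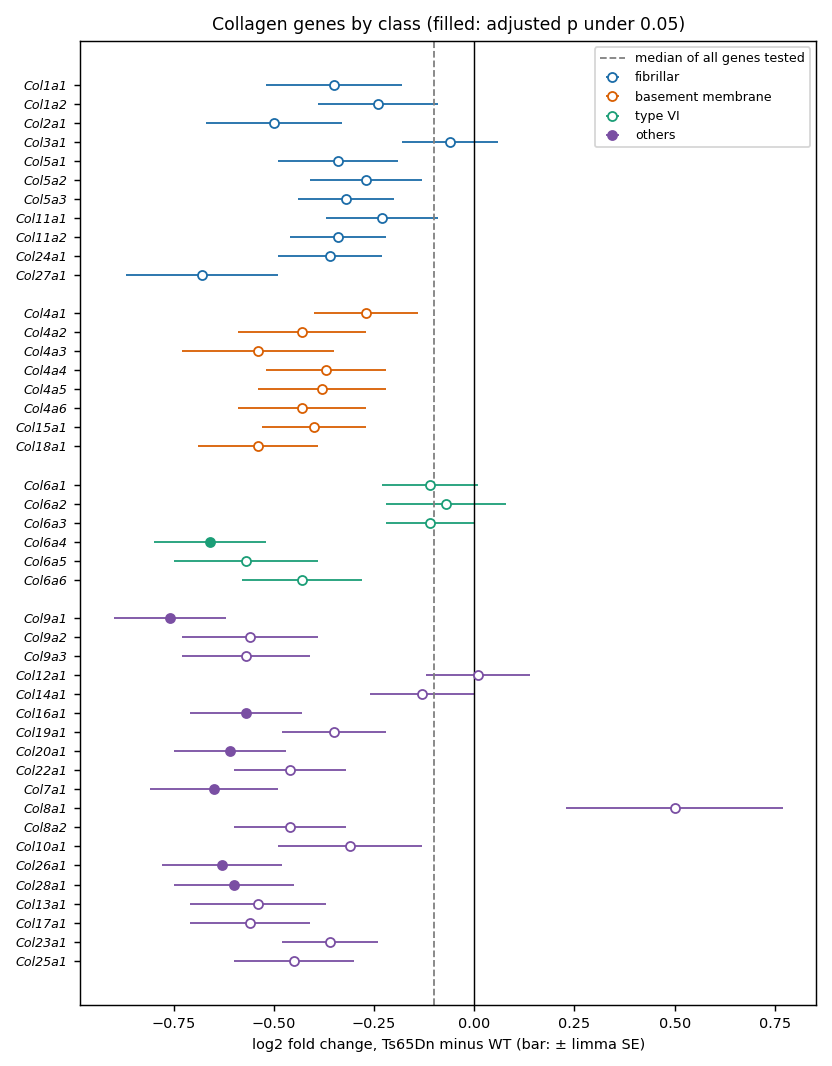
Log2 fold change (Ts65Dn minus WT) of the 44 collagen genes, grouped by class, with bars of ± 1 limma standard error and filled points for the 7 genes called at an adjusted p under 0.05. The dashed line is the median of all genes tested, -0.10, and only Col8a1 and Col12a1 lie to the right of 0.

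Among the called collagens the change was largest for Col9a1, a chain of the fibril-associated collagen IX of cartilage. It was at 4.29, 4.35, 4.68 and 4.17 in the Ts65Dn arrays and 5.09, 5.19, 5.31 and 4.94 in the WT arrays, here and below in the order of replicates 1 to 4. Every Ts65Dn array lay below every WT array, and the log2 fold change was -0.76 ± 0.14 (limma SE; adjusted p = 0.0456). Col20a1 and Col16a1, of the same fibril-associated group, fell by 0.61 and 0.57 on the log2 scale. Col20a1 was at 4.46, 4.62, 4.9 and 4.69 in Ts65Dn and 5.06, 5.28, 5.49 and 5.29 in WT, and Col16a1 at 4.75, 4.96, 5.01 and 4.97 and 5.25, 5.64, 5.76 and 5.34. The groups did not overlap for either gene.

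The other called genes belong to different structures. Col7a1 encodes the collagen of anchoring fibrils beneath epithelia. It was at 5.21, 5.35, 5.39 and 5.21 in Ts65Dn and 5.78, 6.03, 6.33 and 5.61 in WT, which is -0.65 ± 0.16 as a log2 fold change (limma SE; adjusted p = 0.0475). Col26a1 was at 5.37, 5.41, 5.56 and 5.67 against 5.97, 6.18, 6.48 and 5.89, with WT array 3 the highest. Col28a1, which encodes a collagen with von Willebrand factor A domains found around peripheral nerve, was at 3.94, 3.94, 3.86 and 4.18 against 4.37, 4.8, 4.83 and 4.33. These 2 genes fell by 0.63 and 0.60 on the log2 scale. Col6a4, a chain of type VI, was at 3.86, 3.75, 4.07 and 3.95 in Ts65Dn and 4.27, 4.78, 4.74 and 4.5 in WT, a log2 fold change of -0.66 ± 0.14 (limma SE; adjusted p = 0.0456). For all 7 called genes the Ts65Dn and WT arrays did not overlap, which choosing genes by a small p favours. Over all genes 15.9% had all Ts65Dn arrays below all WT arrays, and 23.4% in the range of collagen means. The highest value of each called gene was that of WT array 2 or 3. WT arrays 1 and 4 lay between these and the Ts65Dn arrays, except that WT array 4 was level with WT array 2 for Col20a1. Without WT arrays 2 and 3, Col9a1 was at -0.64 and Col20a1 at -0.51 on that scale, and the log2 fold change moved by over 1.5 times for Col16a1 (-0.37), Col7a1 (-0.41) and Col28a1 (-0.36).

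The stretch of 120 bases before the most upstream annotated start is shown for the called genes that have an entry in the promoter table, and for Col6a1 and Col6a2, the pair on chromosome 10 which did not pass the test. Sequences are from RefSeq, build GRCm38.p6, 5′ to 3′ on the strand of the gene. Capitals mark CCAAT or GGGCGG, each searched on both strands, where these do not overlap.
Col9a1, chr1:24177490-24177609, plus strand: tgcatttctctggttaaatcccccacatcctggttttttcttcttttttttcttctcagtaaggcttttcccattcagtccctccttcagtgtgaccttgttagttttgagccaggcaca
Col20a1, chr2:180986415-180986534, plus strand: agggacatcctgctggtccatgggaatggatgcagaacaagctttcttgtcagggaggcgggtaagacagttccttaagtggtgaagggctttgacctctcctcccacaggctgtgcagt
Col16a1, chr4:130047720-130047839, plus strand: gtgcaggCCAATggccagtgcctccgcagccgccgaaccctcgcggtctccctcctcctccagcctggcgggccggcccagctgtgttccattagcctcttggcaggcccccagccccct
Col7a1, chr9:108953466-108953585, plus strand: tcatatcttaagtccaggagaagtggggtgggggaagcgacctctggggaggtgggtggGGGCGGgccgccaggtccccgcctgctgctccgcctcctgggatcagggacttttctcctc
Col28a1, chr6:8192618-8192737, minus strand: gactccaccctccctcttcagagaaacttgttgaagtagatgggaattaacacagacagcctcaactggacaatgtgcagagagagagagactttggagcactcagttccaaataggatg
Col6a4, chr9:106096692-106096811, minus strand: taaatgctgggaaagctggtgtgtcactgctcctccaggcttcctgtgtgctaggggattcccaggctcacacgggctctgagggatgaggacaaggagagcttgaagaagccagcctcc
Col6a1, chr10:76726045-76726164, minus strand: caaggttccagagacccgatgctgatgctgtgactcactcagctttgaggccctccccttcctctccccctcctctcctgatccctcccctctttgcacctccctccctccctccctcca
Col6a2, chr10:76623631-76623750, minus strand: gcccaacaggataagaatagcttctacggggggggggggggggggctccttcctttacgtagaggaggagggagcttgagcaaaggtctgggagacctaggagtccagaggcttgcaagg

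Of the 44 genes, 35 had an entry. GGGCGG, the core of the GC box, was held by 17 of these 35 stretches (48.6%) and by 26.9% of the stretches of all 27025 genes of the table. Among the 6 called genes with an entry it was found in 1, Col7a1. CCAAT was held by 5 of 35 (14.3%), by 22.1% of all genes, and by 1 of the 6, Col16a1. A match describes these letters and is no measure of binding.

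**Figure D2:**
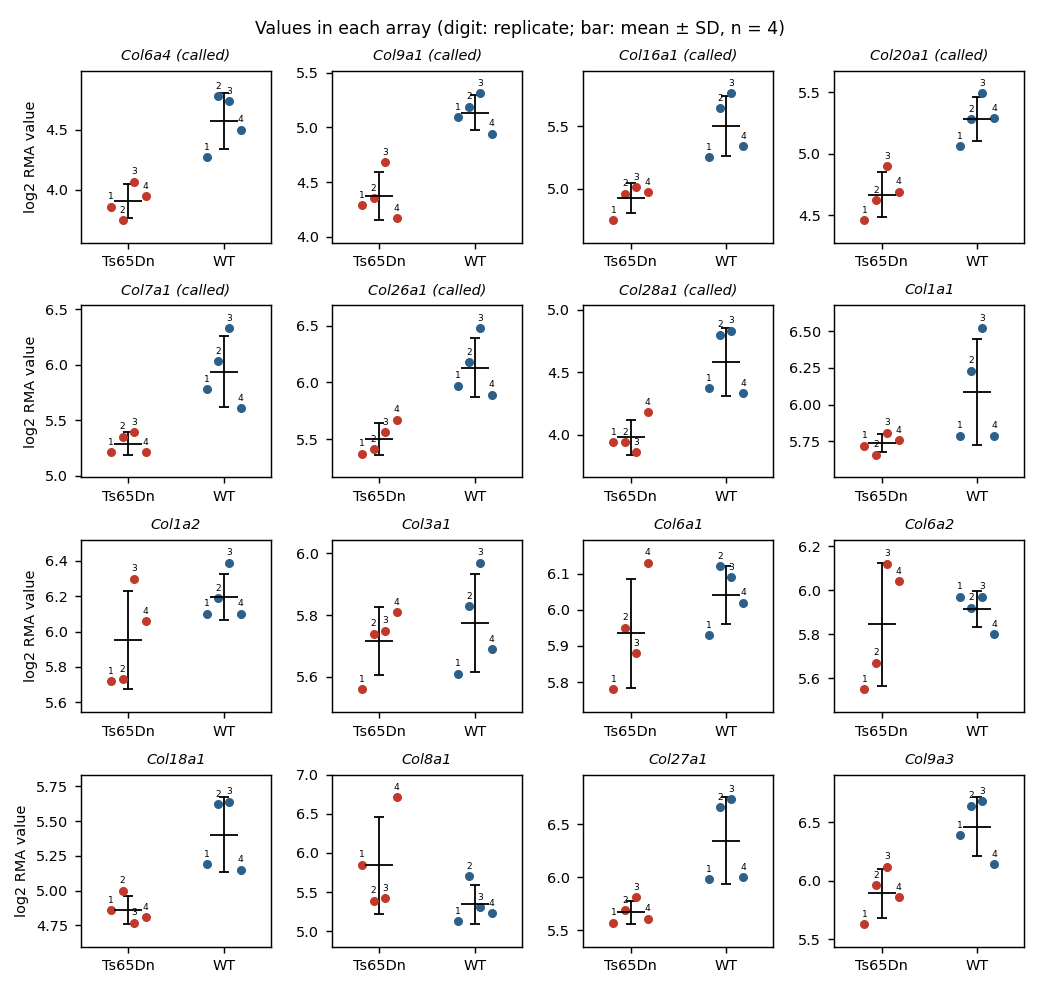
Log2 RMA value in each array (digits are replicate numbers) with the group mean ± SD (n = 4) for the 7 called collagens, marked as called, and 9 other collagens. Each panel has its own axis. Ts65Dn lies below WT without overlap in the 7 called panels and in Col18a1, Col27a1 and Col9a3, and the groups overlap in Col1a1, Col1a2, Col3a1, Col6a1, Col6a2 and Col8a1.

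Fibrillar collagens had a negative log2 fold change in 11 of 11 genes, beside 60.8% of all genes, and 0 were called. An unadjusted p under 0.05 was found for 6, beside 34.8% of all genes. Their median was -0.34, and adjusted p-values ran from 0.0560 to 0.746. Collagen I, the main fibril collagen of muscle and tendon, is made of the chains of Col1a1 and Col1a2. Col1a1 was at 5.72, 5.66, 5.81 and 5.76 in Ts65Dn and 5.79, 6.23, 6.52 and 5.79 in WT. Col1a2 was at 5.72, 5.73, 6.3 and 6.06 in Ts65Dn and 6.1, 6.19, 6.39 and 6.1 in WT. For Col1a1, WT arrays 1 and 4 were close to the Ts65Dn arrays and WT arrays 2 and 3 were higher. Its log2 fold change, -0.35 ± 0.17 (limma adjusted p = 0.168), shrank to -0.05 without them. For Col1a2, Ts65Dn array 3 lay within the WT range and the others below it (log2 fold change -0.24 ± 0.15, limma adjusted p = 0.272, and -0.15 without WT arrays 2 and 3). Col3a1, the chain of collagen III, which accompanies collagen I in pliable tissue, was at 5.56, 5.74, 5.75 and 5.81 against 5.61, 5.83, 5.97 and 5.69. Of its Ts65Dn arrays 3 lay within the WT range, and its log2 fold change of -0.06 ± 0.12 turned to 0.14 after centring of the arrays and to 0.07 without WT arrays 2 and 3.

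Collagen V regulates the width of collagen I fibrils. Its chain Col5a1 was at 5.34, 5.22, 5.33 and 5.25 in Ts65Dn and 5.5, 5.95, 5.76 and 5.27 in WT, and Col5a3 at 5.0, 5.08, 5.1 and 5.03 and 5.24, 5.55, 5.52 and 5.2. The groups were separate for Col5a3 and overlapped for Col5a1, where WT array 4 lay among the Ts65Dn arrays. Col5a2, dimmer than the median gene, had a log2 fold change of -0.27, and 0.02 with cyclic loess.

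The remaining fibrillar genes are known mainly from cartilage and bone. Col2a1, the collagen of cartilage fibrils, was at 5.09, 5.49, 5.43 and 5.23 in Ts65Dn and 5.66, 6.0, 6.16 and 5.43 in WT. Its partners in those fibrils are the chains of collagen XI, Col11a1, at 4.51, 4.8, 4.93 and 4.87 and 4.99, 5.19, 5.12 and 4.74, and Col11a2, at 5.4, 5.48, 5.64 and 5.32 and 5.64, 5.91, 5.92 and 5.73. Of these 3 genes Col11a2 had groups that did not overlap, although Ts65Dn array 3 and WT array 1 were equal to 2 decimals. Their log2 fold changes were -0.50, -0.23 and -0.34. Col24a1, a fibrillar collagen of bone and cornea, was at 4.6, 4.65, 4.92 and 4.68 against 5.08, 5.01, 5.31 and 4.89, with 3 Ts65Dn arrays below the WT range. Col27a1, a cartilage collagen with a shortened triple helix, was at 5.57, 5.69, 5.81 and 5.61 in Ts65Dn and 5.98, 6.66, 6.74 and 6.0 in WT. It had the most negative log2 fold change of the class, -0.68 ± 0.19 (limma adjusted p = 0.056). WT arrays 2 and 3 were far above WT arrays 1 and 4 for this gene, and without them the value was -0.32.

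Basement membrane collagens had a negative log2 fold change in 8 of 8 genes, beside 60.8% of all genes, with a median of -0.41. Of the 8, 0 were called and 7 had an unadjusted p under 0.05, beside 34.8% of all genes. Col4a1 and Col4a2 encode the chains of the collagen IV network found in nearly all basement membranes. Col4a1 was at 5.16, 5.18, 5.26 and 5.3 in Ts65Dn and 5.41, 5.77, 5.52 and 5.28 in WT. Col4a2 was at 5.01, 5.13, 5.37 and 5.46 in Ts65Dn and 5.44, 5.76, 5.98 and 5.52 in WT. Both had 3 Ts65Dn arrays below the WT range, with log2 fold changes of -0.27 ± 0.13 and -0.43 ± 0.16 (limma adjusted p = 0.164 and 0.0903), and of -0.12 and -0.23 without WT arrays 2 and 3. Col4a4, a chain of the kidney and inner ear network, was at 4.6, 4.48, 4.76 and 4.79 against 4.68, 5.32, 5.11 and 4.99. The other chains of specialised networks, Col4a3, Col4a5 and Col4a6, were dimmer than the median gene and had log2 fold changes of -0.54, -0.38 and -0.43.

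The multiplexins, collagens XV and XVIII, carry heparan or chondroitin sulphate chains and sit at the outer face of basement membranes. Col15a1, whose product stabilises muscle fibres and capillaries, was at 4.93, 5.29, 5.08 and 5.16 in Ts65Dn and 5.51, 5.55, 5.68 and 5.3 in WT. Col18a1, the source of the fragment endostatin, was at 4.86, 5.0, 4.77 and 4.81 in Ts65Dn and 5.19, 5.62, 5.64 and 5.15 in WT. Neither gene's groups overlapped, and the log2 fold changes were -0.40 ± 0.13 and -0.54 ± 0.15 (limma adjusted p = 0.0709 and 0.0531). Without WT arrays 2 and 3 the values were -0.29 for Col15a1 and -0.31 for Col18a1.

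Of the 6 type VI genes 1 fell, Col6a4, where 2.94% of all genes were called lower. The median of the class was -0.27, beside -0.10 over all genes tested and -0.22 over genes in the range of collagen means. Col6a1, Col6a2 and Col6a3 encode the chains of the main collagen VI filament, whose loss causes muscle disease in humans. Col6a1 was at 5.78, 5.95, 5.88 and 6.13 in Ts65Dn and 5.93, 6.12, 6.09 and 6.02 in WT. Col6a2 was at 5.55, 5.67, 6.12 and 6.04 against 5.97, 5.92, 5.97 and 5.8, and Col6a3 at 5.31, 5.21, 5.22 and 5.18 against 5.32, 5.37, 5.47 and 5.2. The groups overlapped for all 3, and Ts65Dn array 4 had the highest Col6a1 value and Ts65Dn array 3 the highest Col6a2 value of all 8 arrays. Their log2 fold changes were -0.11 ± 0.12, -0.07 ± 0.15 and -0.11 ± 0.11 (limma adjusted p = 0.534, 0.748 and 0.468), and 0.10, 0.13 and 0.09 after centring of the arrays. Thus neither of the 2 type VI genes whose human counterparts are trisomic in Down syndrome passed the test.

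The other type VI genes, Col6a4, Col6a5 and Col6a6, encode chains that can take the place of the Col6a3 chain. Col6a5 was at 4.81, 4.77, 4.71 and 4.61 in Ts65Dn and 4.96, 5.6, 5.68 and 4.93 in WT, and Col6a6 at 5.49, 5.3, 5.46 and 5.7 and 5.8, 6.27, 5.93 and 5.68. Their log2 fold changes were -0.57 ± 0.18 and -0.43 ± 0.15 (limma adjusted p = 0.0699 and 0.0826), and -0.22 and -0.25 without WT arrays 2 and 3. Both genes had 2 probe sets. The second, dimmer probe set had a log2 fold change of -0.10 for Col6a5 and -0.32 for Col6a6. These 3 genes are neighbouring paralogs, so that RNA of shared sequence could hybridise to more than 1 of their probe sets.

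Among the fibril-associated collagens, 3 of 9 fell, where 2.94% of all genes were called lower. The group's median was -0.56, beside -0.10 over all genes tested. For 7 of the 9 all Ts65Dn arrays lay below all WT arrays, beside 15.9% of all genes and 23.4% of genes in the range of collagen means. Besides Col9a1, the other chains of collagen IX had separate groups. Col9a2 was at 5.78, 5.93, 5.83 and 5.6 in Ts65Dn and 6.08, 6.46, 6.79 and 6.03 in WT. Col9a3 was at 5.63, 5.96, 6.12 and 5.86 in Ts65Dn and 6.39, 6.64, 6.68 and 6.14 in WT. Their log2 fold changes were -0.56 ± 0.17 and -0.57 ± 0.16 (limma adjusted p = 0.0668 and 0.0554), and -0.27 and -0.37 without WT arrays 2 and 3. Col22a1, which marks the junction of muscle and tendon, was at 4.98, 5.04, 5.15 and 5.09 against 5.28, 5.75, 5.74 and 5.33. It also had separate groups, and did not pass (limma adjusted p = 0.0652). Col14a1 and Col12a1 coat collagen I fibrils in tendon and muscle sheaths. Col14a1 was at 5.5, 5.49, 5.46 and 5.36 against 5.35, 5.66, 5.82 and 5.5, with overlapping groups and a log2 fold change of -0.13, which was 0.07 after centring of the arrays. Col12a1 and Col19a1 were dimmer than the median gene, with log2 fold changes of 0.01 and -0.35 (limma adjusted p = 0.963 and 0.0987).

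The 4 transmembrane collagens had negative log2 fold changes from -0.56 to -0.36, and 0 were called. All 4 had every Ts65Dn array below every WT array, beside 15.9% of all genes and 23.4% of genes in the range of collagen means. An unadjusted p under 0.05 was found for 4, beside 34.8% of all genes. Col13a1, which is needed for the maturation of the neuromuscular junction, was at 4.67, 5.02, 4.92 and 5.05 in Ts65Dn and 5.27, 5.77, 5.67 and 5.12 in WT. Col25a1, which acts when motor axons enter muscle in development, was at 4.7, 4.82, 4.92 and 4.76 against 5.0, 5.48, 5.54 and 5.0. Col17a1, of the hemidesmosome of skin, was at 4.51, 4.56, 4.8 and 4.5 against 4.89, 5.44, 5.29 and 4.98, and had the smallest adjusted p of the collagens that were not called (limma, 0.0523). Col23a1 was at 5.53, 5.43, 5.57 and 5.5 in Ts65Dn and 5.66, 5.98, 6.01 and 5.84 in WT, a narrow spread in Ts65Dn with all 4 arrays below WT.

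Col8a1 and Col8a2 encode chains of a short network collagen of vessel walls and the cornea. Col8a1 was at 5.85, 5.39, 5.42 and 6.71 in Ts65Dn and 5.13, 5.7, 5.31 and 5.23 in WT, so that Ts65Dn arrays 1 and 4 lay above the WT range and arrays 2 and 3 within it. Its log2 fold change was 0.50 ± 0.27 (limma adjusted p = 0.204), and 0.21 without Ts65Dn array 4. Col8a2 was at 4.71, 4.81, 4.76 and 4.76 against 4.93, 5.18, 5.57 and 5.21, with all Ts65Dn arrays below WT and a value of -0.46 ± 0.14 on the log2 fold change scale (limma adjusted p = 0.0644). Col10a1, of hypertrophic cartilage and dimmer than the median gene, had a log2 fold change of -0.31. In all, 9 collagen genes had a mean level no higher than the median gene (4.72), with log2 fold changes from -0.66 to 0.01. The 4 of these with the smallest p were Col6a4 and Col28a1, both called, and Col4a3 and Col4a6 (limma adjusted p = 0.0831 and 0.0982).

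Chains of one trimer were compared within arrays, where a scale factor common to an array cancels. The pairs were chosen after the values were seen, so the p-values below describe them and give no independent support. For 11 pairs of chains the difference in log2 value was taken per array and compared between groups over the 70 splits of the arrays (exact permutation test, two-sided), whose smallest p is 0.0286. For Col8a1 minus Col8a2 the difference was 1.08 ± 0.63 in Ts65Dn and 0.12 ± 0.33 in WT (SD, n = 4), a change of 0.96 ± 0.36 (SE; exact p = 0.0286, 0.314 adjusted over the 11 pairs). The other 10 pairs changed by -0.21 to 0.16, with exact p-values of 0.143 to 1. Col1a1 minus Col1a2 changed by -0.10 ± 0.16, Col4a1 minus Col4a2 by 0.16 ± 0.13 and Col6a1 minus Col6a2 by -0.04 ± 0.13 (SE, n = 4 in each group). With 4 arrays a group, 1 pair at the smallest possible p could not pass after adjustment over 11 pairs, so the adjusted values say little about these pairs.

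The collagens were then described by array. The median deviation from each gene's mean over the 8 arrays was -0.31, -0.22, -0.10 and -0.19 in Ts65Dn arrays 1 to 4 and 0.03, 0.40, 0.42 and -0.01 in WT arrays 1 to 4. All Ts65Dn arrays were thus below all WT arrays in this median, with WT arrays 1 and 4 nearer to Ts65Dn than to WT arrays 2 and 3. WT array 2 or 3 held the highest value of 41 of 44 genes, and a Ts65Dn array the lowest of 41. Ts65Dn array 1 was the lowest for 26 genes, among them 8 of 11 fibrillar and 6 of 8 basement membrane genes. Over all 10370 genes whose mean lay within the range of the collagens, the same medians were -0.14, -0.11, -0.06 and -0.10 in Ts65Dn and 0.02, 0.15, 0.22 and 0.01 in WT. Among these 10370 genes the highest value was that of WT array 2 for 2398 and of WT array 3 for 3729. The lowest was that of Ts65Dn arrays 1 to 4 for 2620, 1804, 959 and 1766. The order of the arrays was therefore shared by other genes of this range, with smaller deviations. How much of the collagen difference this shared shift makes up was not tested.

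**Figure D3:**
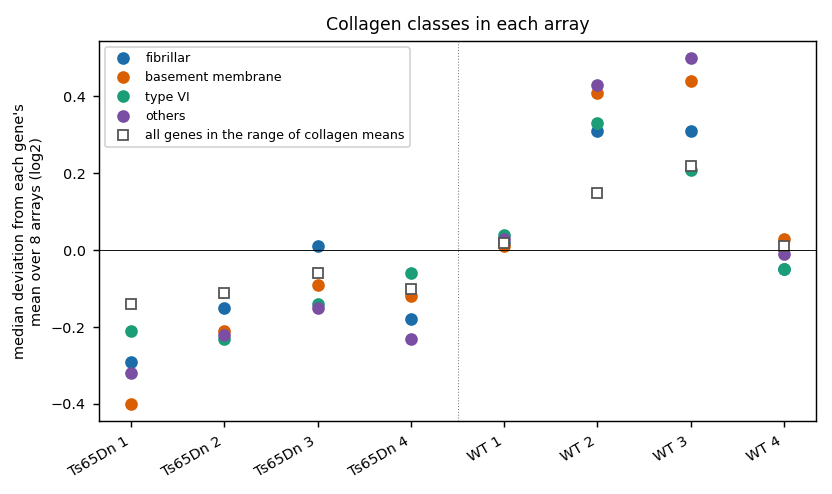
Median deviation of each collagen class from its genes' means over 8 arrays (log2), by array, with open squares for the 10370 genes in the same range of means. Ts65Dn arrays lie at 0.01 or below in every class, WT arrays 1 and 4 lie near 0, and WT arrays 2 and 3 lie at 0.21 or above.

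The fold change of all genes depended on their level, so the collagens were set beside genes of the same range. Collagen means over the 8 arrays ran from 3.56 to 6.18, where the median gene was at 4.72 and the upper quartile at 6.09. Within that range 4.92% of genes were called lower, 70.2% had a negative log2 fold change, 23.4% had all Ts65Dn arrays below all WT arrays, and the median was -0.22. The 9 collagens with a mean from 3.5 to 4.5 had a median of -0.38 beside -0.28 for all genes there, and the 7 from 4.5 to 5 one of -0.46 beside -0.28. The 12 collagens from 5 to 5.5 had a median of -0.44 beside -0.15. In the range from 5.5 to 6.2 the direction was opposite, with a median of -0.35 over 16 collagens, 15 of them negative, and of 0.10 over all 2043 genes. These 16 include Col1a1, Col1a2, Col3a1, Col6a1, Col6a2 and Col27a1. Levels of different probe sets are not comparable as amounts of RNA, and no detection call was used here.

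**Figure D4:**
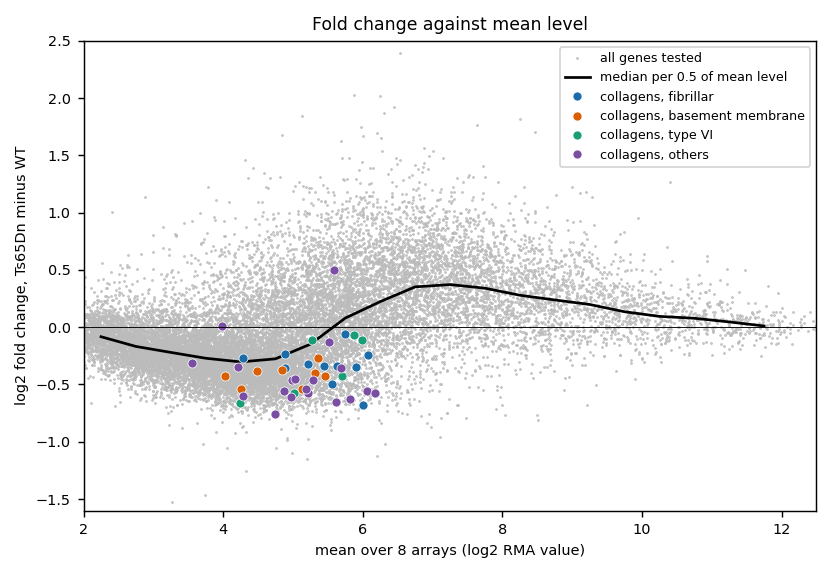
Log2 fold change (Ts65Dn minus WT) against the mean over 8 arrays for all 19938 genes (grey) and the 44 collagens (coloured by class), with the median of all genes per 0.5 of mean level as a black line. Most collagens lie below the line, and the distance is widest above a mean of 5, where the line rises and most collagens lie below 0 (15 of 16 at means from 5.5 to 6.2, Col8a1 being the exception).

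Other scalings left the direction of the family and changed its size. With cyclic loess, which removes a difference that depends on level, 40 of 44 collagens were negative with a median of -0.29, beside 48.6% and 0.01 for all genes. The classes were then at -0.25 (fibrillar), -0.20 (basement membrane), -0.26 (type VI) and -0.34 (others). Among the called genes the value was -0.52 for Col9a1, -0.64 for Col26a1, -0.61 for Col7a1 and -0.31 for Col28a1, and 0 collagens passed limma's test (smallest adjusted p = 0.0639, with 22 at an unadjusted p under 0.05, beside 21.9% of all genes). One more quantile normalization gave a median of -0.38 with 42 of 44 negative, beside 56.2% of all genes, and 0 called (limma, smallest adjusted p = 0.0776, with 26 at an unadjusted p under 0.05, beside 22.4% of all genes). With each array centred on its median, which moved the median of all genes from -0.10 to 0.10, the collagen median was -0.21, 37 of 44 were negative, and Col9a1 was the only collagen called. The share of negative values over all genes was then 38.1%, and of 1008 genes called 951 were higher and 57 lower, against 462 and 587 as deposited. With cyclic loess 117 were called higher and 18 lower.

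**Figure D5:**
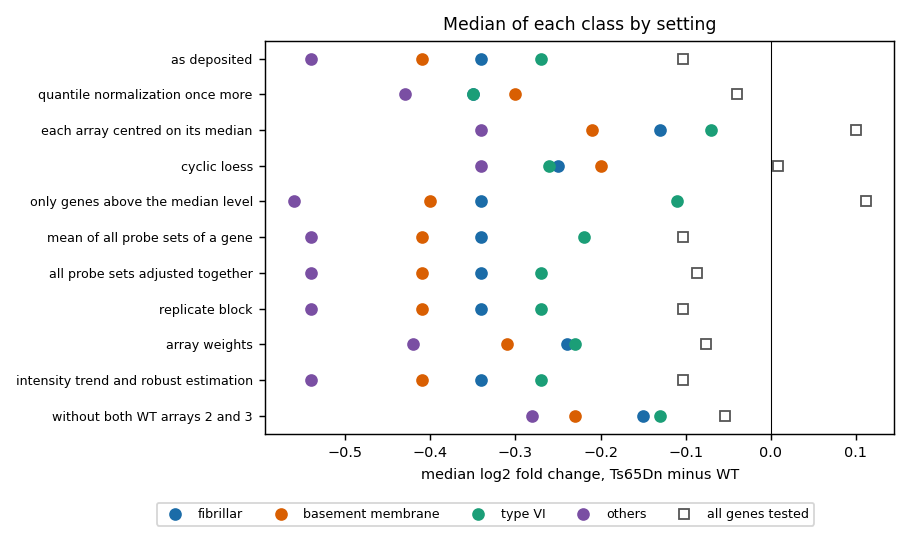
Median log2 fold change (Ts65Dn minus WT) of each collagen class, and of all genes tested as open squares, under the deposited scaling and 10 alternatives. The 4 class medians are below 0 and below the median of all genes in every row, and they lie between -0.28 and -0.13 without WT arrays 2 and 3.

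Genes that process, bind or break down collagen were counted next. Of 101 such genes in 7 lists, 95 were measured, 6 rose and 1 fell, where 2.32% of all genes were called higher and 2.94% lower. Of the 95, 44 were negative, beside 60.8% of all genes, and the median log2 fold change was 0.06 beside -0.10. The fold change of all genes depended on level, and 61 of the 95 had a mean above that of the median gene. Over all genes above that level the median was 0.11. The related genes were not set beside genes of the same level. Without WT arrays 2 and 3 the number called by limma was 0, with 15 of 95 at an unadjusted p under 0.05, which is near the 16.8% of all genes. The other listed genes were not analysed here. Among genes of chain modification, folding and export, 14 of 20 were positive with a median of 0.19, and 1 was called. Sec23a, a coat protein of the vesicles that carry procollagen out of the endoplasmic reticulum, was at 7.19, 7.52, 7.17 and 7.23 in Ts65Dn and 6.51, 5.86, 5.95 and 7.0 in WT, which is 0.95 ± 0.23 as a log2 fold change (limma adjusted p = 0.0475). The prolyl hydroxylases P4ha1 and P3h2 had values of 0.78 and 0.92 and did not pass (limma adjusted p = 0.0676 and 0.0821). The collagen chaperone Serpinh1 was at 0.01. Without WT arrays 2 and 3, Sec23a differed by 0.52 and P4ha1 by 0.29 on the log2 scale.

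Propeptide removal and cross-linking genes were negative in 7 of 11 cases, near the 60.8% of all genes, with a median of -0.17. Loxl4, a lysyl oxidase-like cross-linking enzyme, fell by 0.71 on the log2 scale, from 3.91, 4.35, 4.29 and 3.92 in WT to 3.2, 3.38, 3.76 and 3.31 in Ts65Dn (limma adjusted p = 0.0456). Its groups did not overlap. Adamts3, which removes the amino-terminal propeptide, had a log2 fold change of -0.28 and Tll2 one of -0.37, and neither passed.

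Proteins that bind collagen fibrils were positive in 8 of 12 cases, where 60.8% of all genes were negative, with a median of 0.36. Of the 12, 2 rose, where 2.32% of all genes were called higher. Bgn, the small proteoglycan biglycan, was at 6.88, 6.54, 7.09 and 7.86 in Ts65Dn and 6.13, 5.62, 5.46 and 6.24 in WT. It rose by 1.23 ± 0.27 on the log2 scale (limma adjusted p = 0.0456) and by 0.91 without WT arrays 2 and 3. Abi3bp rose by 0.98 (limma adjusted p = 0.0475), with 1 Ts65Dn array within the WT range and a value of 0.59 without WT arrays 2 and 3. Lumican, Lum, which limits fibril width, was at 7.64, 7.23, 7.23 and 7.81 against 6.74, 5.61, 6.39 and 7.07 and did not pass (log2 fold change 1.02, limma adjusted p = 0.0537). All 4 Ts65Dn arrays were above WT for Bgn and Lum, the opposite of the order in Col9a1.

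Of 14 partners of collagen IV in the basement membrane, 2 rose, where 2.32% of all genes were called higher. Of the 14 values 7 were positive and 7 negative, where 60.8% of all genes were negative. Lamc1, the gamma chain shared by most laminins, was at 7.43, 7.29, 7.13 and 7.69 in Ts65Dn and 6.64, 6.28, 6.18 and 6.43 in WT. It rose by 1.0 ± 0.15 (log2, limma adjusted p = 0.0456). Lama4, a laminin chain of vessel walls, was at 5.73, 5.12, 5.34 and 5.32 against 4.89, 4.6, 4.68 and 4.62 and rose by 0.68 ± 0.15 (limma adjusted p = 0.0456). Both also passed with cyclic loess (limma adjusted p = 0.0433 and 0.0459). Neither passed after one more quantile normalization (limma adjusted p = 0.07 for both) or without WT arrays 2 and 3 (0.174 and 0.209). Without these 2 arrays the log2 fold changes of Lamc1 and Lama4 were 0.85 and 0.62. Lama2, the laminin chain of the muscle fibre, had a value of 0.56 (limma adjusted p = 0.0547). Among collagen receptors 1 of 12 rose, beside 2.32% of all genes called higher. This was Antxr1, which binds type VI and type I collagen. It rose by 0.95 on the log2 scale (limma adjusted p = 0.0475), with WT array 1 just above the lowest Ts65Dn array. The integrin chain Itgb1 was at 0.71 and the collagen uptake receptor Mrc2 at -0.40, and neither passed.

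Of 14 genes of collagen breakdown 0 passed, and 3 of them, Mmp14 (-0.45), Fap (0.77) and Mmp9 (-0.30), had the smallest p-values (limma adjusted p = 0.0632, 0.0891 and 0.163). Mmp14 is a membrane collagenase and Fap a protease of activated fibroblasts. Of 12 genes of the TGF-beta signal, an inducer of collagen genes, 0 passed. The receptor Tgfbr1 was at 0.78, and the mediators Smad2 and Smad4 were at 0.43 and 0.81 (limma adjusted p = 0.0812, 0.0911 and 0.1). An unadjusted p under 0.05 was found for 2 of the 14 and 3 of the 12 genes, below the 34.8% of all genes. Without WT array 3, at 5.91 for Smad4, that gene was at 0.42, and without WT array 2 Tgfbr1 was at 0.50. Without WT array 4 Tgfbr1 was at 0.99 and passed.

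Of 7 fibroblast markers 6 were positive, where 60.8% of all genes were negative and 2.32% were called higher. Pdgfra, a receptor of interstitial fibroblasts, rose by 0.62 ± 0.14 (log2, limma adjusted p = 0.0456). Lum (1.02), Dpt (0.54), Thy1 (0.38), Dcn (0.35), Pdgfrb (0.02) and Pi16 (-0.22) did not pass. The mean over the list was 6.89 to 7.09 in Ts65Dn arrays and 6.49 to 6.85 in WT arrays. Endothelial markers were positive in 5 of 6 cases, with Kdr and Emcn called higher (log2 fold changes 0.99 and 1.18, and 1.03 and 0.73 without WT arrays 2 and 3). Tek (0.74), Pecam1 (0.58), Cdh5 (0.54) and Cldn5 (-0.30) did not pass. The endothelial list averaged 5.87 to 6.27 against 5.14 to 5.70. In the macrophage list Cd68 rose by 2.39 on the log2 scale, and the list averaged 5.26 to 5.87 against 4.77 to 5.05. Its other markers, Lyz2 (0.42), Mrc1 (0.31), Cd163 (0.29), Csf1r (0.09) and Adgre1 (-0.05), did not pass, and none had an unadjusted p under 0.05. Tendon markers averaged 5.04 to 5.81 in Ts65Dn and 5.31 to 5.90 in WT, with 4 of 7 negative. Cartilage and bone markers averaged 3.81 to 3.90 and 3.84 to 4.39, with 5 of 5 negative. For Schwann cell markers the averages were 5.33 to 5.59 and 5.43 to 5.64, with 3 of 4 negative. Adipocyte markers averaged 4.76 to 5.44 and 5.08 to 5.75, with 3 of 4 negative. Smooth muscle markers averaged 6.46 to 6.80 and 6.30 to 6.48, with 0 of 5 negative. Their list holds Des, at a mean of 10.71 over all arrays, which raises these averages. Acta2, Tagln, Myh11 and Cnn1 were at 6.06, 5.56, 5.37 and 4.9. None of these markers passed. Scx had the smallest p of the tendon list (log2 fold change -0.54, limma adjusted p = 0.0578), and Matn1 of the cartilage and bone list (-0.43, 0.0734). The marker lists were not set beside genes of the same level. Pdgfra, Kdr, Emcn and Cd68 did not pass without WT arrays 2 and 3 (limma adjusted p = 0.174, 0.165, 0.174 and 0.222). That fit kept only arrays 1 and 4 of WT, and 1 of 19938 genes passed in it. The log2 fold changes of Pdgfra and Cd68 were then 0.65 and 2.16. The part of these cell types in the collagen values was not tested.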

How the data were processed

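Total RNA of soleus from 8 mice, 4 Ts65Dn and 4 WT, was amplified to biotinylated cDNA and hybridised to 1 array per mouse, per the labels. The authors deposited log2 values per probe set, made with Affymetrix Expression Console 1.1 and RMA per the submitters' processing notes. The log2 scale was read from the range of the values, and the genome build of the array's annotation is not given in the sources used here. RMA fits probes of all arrays together and quantile-normalizes them, which compresses differences of dim genes.

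Of 35556 probe sets, 21789 had 1 gene symbol, 1621 several and 12146 none. Symbols were updated through Entrez identifiers to the RefSeq table of GRCm38.p6 for 21698 probe sets and kept for 91. For each of 19938 genes the probe set of highest mean was used, 999 genes having several. Groups were compared with limma 3.58.1 (lmFit and eBayes, R 4.3.3), in a two-sided test. The p-values were adjusted by Benjamini-Hochberg across the whole table, the threshold was 0.05, and no gene was left out for a low level. The fit was tested on simulated data.

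The members and lists were chosen with earlier results of these data known, and the chain pairs after seeing the values. Values are given for every array for each collagen above the median level or called, and the others are given by counts, range and the 4 with the smallest p. Of each list of related genes the 3 with the smallest p are named, and Serpinh1 was added after its value was seen. The number of arrays limits the precision. Alternatives were 3 scalings, only genes brighter than the median gene, the mean of probe sets, all probe sets together, the replicate block, array weights, trended robust moderation, leaving out each array, and leaving out WT arrays 2 and 3.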

Additional observations from a re-analysis of the deposited data

Results flagged for a closer look

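In 4 of 138 groups of 4 arrays among the named genes, 1 array stood apart from the other 3 by Dixon's ratio test, where chance flags about 1 in 20 groups. Among the collagens this was Col19a1, with Ts65Dn array 3 at 4.19 and the other Ts65Dn arrays at 3.97 to 4.0. Sec23a was at 7.52 in Ts65Dn array 2 and at 7.17 to 7.23 in the others. Antxr1 was at 5.74 in WT array 1 and at 4.96 to 5.09 in the others. Smad4 was at 5.91 in WT array 3 and at 7.37 to 7.58 in the others.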

How the results depend on the processing

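The median of each collagen class stayed below 0 under all 18 alternatives, and the counts of calls did not hold. The 7 collagens, 1049 genes in all and 7 related genes called as deposited became 0, 1 and 0 after one more quantile normalization, 0, 135 and 2 with cyclic loess, 2, 436 and 3 when dimmer genes were left out, 0, 1 and 0 with all probe sets adjusted together, 1, 236 and 1 with array weights, and 0, 1 and 0 without both WT arrays 2 and 3. Centring each array left 1 collagen called, and trended robust moderation 4. Leaving out 1 array gave 0 to 17 collagens, 0 to 2865 genes and 0 to 12 related genes. The adjusted p of the calls lay close to the threshold (0.0449 is the smallest over all genes), and the cause of the changes was not tested.

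With the replicate number as a block 0 collagens, 0 genes and 0 related genes were called by limma, with 30 collagens, 7014 genes and 32 related genes at an unadjusted p under 0.05. Same-numbered arrays had correlations of deviations of 0.0299, 0.0117, 0.0913 and 0.0701, and arrays of unlike number of -0.1194 to 0.0888. Not every array correlated best with its own number. These correlations cannot decide whether same-numbered arrays were handled together.

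The median over all collagens was -0.21 with each array centred and -0.23 without both WT arrays 2 and 3. The fibrillar median was -0.13 and -0.15 under these, that of type VI -0.07 and -0.13, and that of the others -0.34 and -0.28. Basement membrane genes were at -0.21 when centred. With cyclic loess they were at -0.20 and the others at -0.34, and type VI was at -0.11 when genes up to the median level were left out. Leaving out 1 array gave -0.48 to -0.34 for all collagens, -0.38 to -0.27 for fibrillar, -0.50 to -0.34 for basement membrane, -0.34 to -0.21 for type VI and -0.61 to -0.41 for the others.

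The sign reversed for 7 collagens, none of them called. With each array centred, Col3a1 was at 0.14, Col14a1 at 0.07, Col6a1 at 0.10, Col6a2 at 0.13 and Col6a3 at 0.09. With cyclic loess Col5a2 was at 0.02 and Col6a3 at 0.01. Without both WT arrays 2 and 3, Col3a1 was at 0.07 and Col14a1 at 0.02, and with array weights Col3a1 was at 0.01. Leaving out 1 array gave -0.05 to 0.07 for Col12a1, -0.11 to 0.01 for Col3a1 and -0.16 to 0.03 for Col6a2. Over 69 named genes, 957 values kept direction and side of the threshold, 225 lost the call, 29 gained one and 16 reversed.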
